A study of Mus musculus with 8 samples.

Results

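The receptors for IL-33, IL-18 and IL-1, with the adapter and kinases that they share, were followed in bone marrow-derived mast cells (BMMCs) depleted of Mettl3. The 10 genes were chosen by family membership: the receptor chains Il1rl1, Il1rap, Il18r1, Il18rap, Il1r1 and Il1r2, the adapter Myd88, and the kinases Irak1, Irak2 and Irak4. They are 10 of the 56748 gene IDs in the count tables, and all 10 were among the 14942 genes with enough counts to be tested. The list was drawn up with the Mettl3-RNP against Pulsed results already known, so the values of its members in that comparison are a description and carry no p-value.

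BMMCs are mast cells grown in IL-3 from the bone marrow of young C57BL/6 mice, and the series names 4 mice as the source of 8 libraries. In the Mettl3-RNP group (n = 4) differentiated cells had been electroporated with Cas9 ribonucleoproteins (RNPs) that cut Mettl3, the catalytic subunit of the complex that writes N6-methyladenosine on mRNA. In the Pulsed group (n = 4) cells of the same origin had been mock transfected without any RNP, so the control had met neither Cas9 nor a guide RNA. The cells of both groups were unstimulated, and the edited cultures were not sorted and still held untargeted cells.

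Receptors of this family pair a ligand-binding chain with an accessory chain, and their cytoplasmic Toll/IL-1 receptor domains recruit Myd88 and the IRAK kinases, which lead to NF-kappaB and MAP kinases. IL-33, an alarmin released by damaged epithelium, is among the best known activators of mast cells besides IgE. It binds ST2, the product of Il1rl1, and ST2 signals together with the accessory protein encoded by Il1rap. IL-18 uses Il18r1 and Il18rap, IL-1 uses Il1r1 and Il1rap, and Il1r2 encodes a decoy that binds IL-1 without signalling.

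Of the 6 receptor genes, 5 sit side by side on the plus strand of chromosome 1 (GRCm39), where Il1r2 occupies chr1:40113239-40164391, Il1r1 chr1:40264174-40356417, Il1rl1 chr1:40468730-40504575, Il18r1 chr1:40504712-40540014 and Il18rap chr1:40554522-40590865. With Il1rl2, the IL-36 receptor gene at chr1:40363708-40406734, they make up all 6 protein-coding genes of a stretch of 477.627 kb. The end of Il1rl1 and the start of Il18r1 are separated by 136 bp. Il1rap lies apart on chromosome 16 (26400350 to 26548880, plus strand).

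The promoters of Il1rl1 and Il18rap are shown because these were the most abundant member and the member whose groups did not overlap. Il1rl1 has alternative first exons, and the RefSeq promoter table lists starts 10059 bp apart. The upstream start is the one at the annotated 5′ end of the gene, and the downstream one lies inside it, with 2 of the 250 bases before it in an annotated exon. Each sequence is the 250 bases before a RefSeq start, matched letter for letter to GRCm39 and read 5′ to 3′ on the plus strand. Capitals mark the letters GATAA or their reverse complement TTATC, which GATA family factors can bind.
Il1rl1 upstream start, chr1:40468480-40468729: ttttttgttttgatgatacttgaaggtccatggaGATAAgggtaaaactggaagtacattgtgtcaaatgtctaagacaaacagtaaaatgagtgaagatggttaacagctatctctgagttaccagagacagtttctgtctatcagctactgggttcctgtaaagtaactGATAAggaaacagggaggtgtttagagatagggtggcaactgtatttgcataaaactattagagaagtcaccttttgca
Il1rl1 downstream start, chr1:40478539-40478788: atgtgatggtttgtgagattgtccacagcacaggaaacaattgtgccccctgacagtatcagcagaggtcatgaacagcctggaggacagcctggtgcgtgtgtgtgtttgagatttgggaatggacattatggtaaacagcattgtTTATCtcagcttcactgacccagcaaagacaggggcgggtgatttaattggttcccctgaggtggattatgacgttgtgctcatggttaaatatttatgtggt
Il18rap, chr1:40554272-40554521: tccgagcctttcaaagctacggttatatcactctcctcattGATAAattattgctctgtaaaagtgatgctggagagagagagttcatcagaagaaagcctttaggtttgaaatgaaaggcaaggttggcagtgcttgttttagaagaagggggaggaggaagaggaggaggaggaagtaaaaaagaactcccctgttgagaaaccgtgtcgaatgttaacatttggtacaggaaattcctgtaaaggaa

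All 10 members matched the RefSeq table, with 15 windows in all. GATAA or TTATC stood in 4 of these 15 windows, those of Il1rl1 (both starts), Il18rap and Il1r2, against 22.6% of all 32851 windows of the same length. The AP-1 letters TGACTCA (reverse complement TGAGTCA) stood in 0 of the 15 windows and in 4.46% of all windows. The palindrome CACGTG stood in the Il1r2 window alone, against 6.02% of all windows. A match of letters shows no binding, and no match says only that the letters are missing from that window.

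Read depth was 32643260 to 45324826 assigned counts per library. CPM values here are counts per 1e+06 counts of the effective library size (TMM). Mettl3 RNA checked the labels. It stood at 12.3, 9.18, 4.88 and 9.21 CPM in Mettl3-RNP libraries 1 to 4 and at 25.9, 24.5, 11.2 and 26.5 CPM in Pulsed libraries 1 to 4. Its level fell in 4 of 4 pairs (fitted log2 change -1.30, SE 0.11, edgeR adjusted p = 0.00543), and exons of Tox4 overlap it on the opposite strand. Libraries were paired by number because both groups were numbered 1 to 4 and the series names 4 mice. As a check, same-numbered libraries deviated together, with correlations of 0.489 to 0.879. The labels do not say what the numbers mark, and reading them as the mouse of origin is an inference. Log2 fold changes are Mettl3-RNP minus Pulsed from a fit over all genes with the number as a block. A gene was called at a Benjamini-Hochberg adjusted p of 0.05 or less. For the members, chosen with this contrast known, a call in any fit is a description and carries no weight as a test.

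Mast cell identity was clear in both groups. All 10 mast cell markers were measured, with a summed level of 38460 to 54191 CPM in Mettl3-RNP and 43410 to 61100 CPM in Pulsed. Kit, the stem cell factor receptor, and Fcer1a, the alpha chain of the IgE receptor, had fold changes of 0.08 (SE 0.09) and 0.14 (SE 0.10) on the log2 scale. Cpa3, the granule carboxypeptidase, was the 1 of 10 called, lower in 4 of 4 pairs (log2 fold change -0.37, SE 0.07, adjusted p = 0.0328), and it was named after its value was seen. Of the 10 markers 6 were fitted higher, and DESeq2 also called Mitf, which was at 0.30 (SE 0.08).

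The ST2 gene Il1rl1 dominated the family. Per kilobase of annotated exons its level averaged 937 CPM per kb over the 8 libraries (530 to 1212), which ranked 21 among 14862 genes with a length. The next members were the decoy Il1r2 (62.6 CPM per kb), Irak1 (28.4), Myd88 (25.4), Irak2 (14.5), Il18r1 (13.1), Irak4 (7.83), Il18rap (5.98), Il1rap (1.12) and Il1r1 (0.099). Between neighbours in this order, the libraries did not overlap after Il1rl1, after Myd88, after Il18rap and after Il1rap. The ranges of Il1r2 and Irak1, Irak1 and Myd88, Irak2 and Il18r1, Il18r1 and Irak4, and Irak4 and Il18rap overlapped, so their order is not separated by the spread. Over the length of the canonical transcript, Irak4 (17.2 CPM per kb) came before Il18r1 (15.0).

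**Figure D1:**
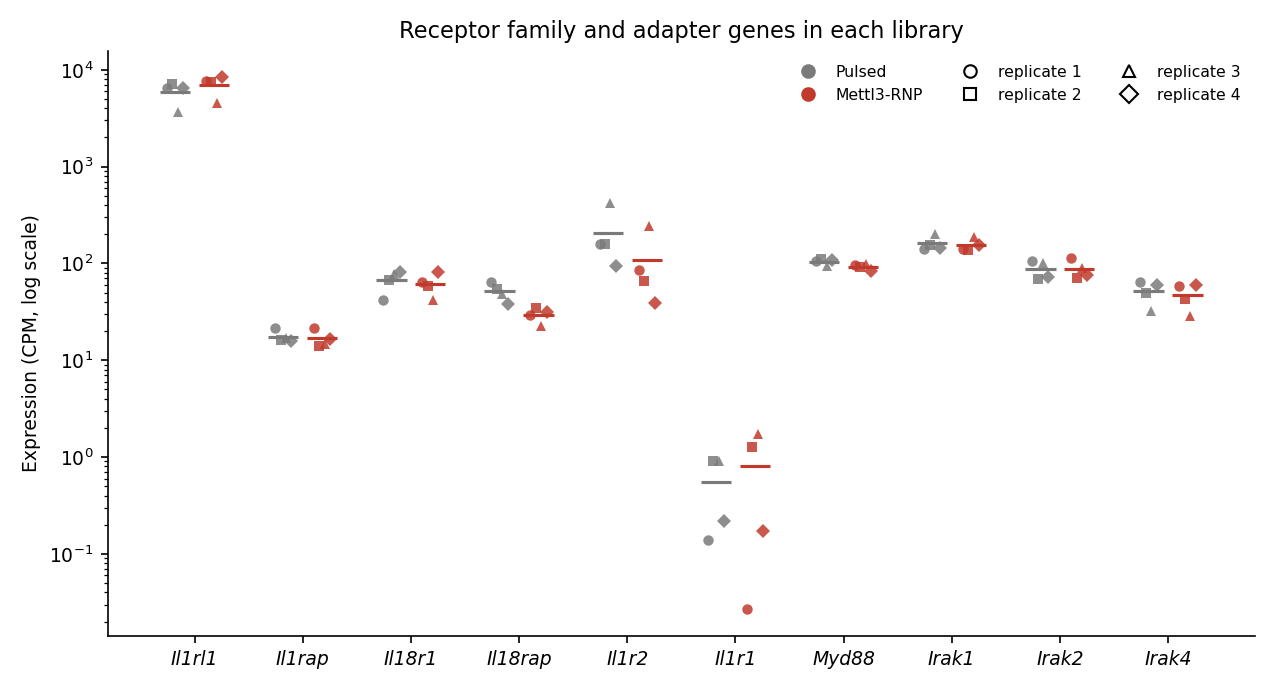
Expression of the 10 genes in each library, in CPM on a log axis, with Pulsed in grey and Mettl3-RNP in red. Marker shapes give the replicate number and horizontal lines the group means (n = 4). The Il1rl1 libraries lie between 3653 and 8353 CPM, Il1r1 lies at or below 1.74 CPM, and Il18rap is the gene whose groups do not overlap.

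In Pulsed libraries 1 to 4, Il1rl1 stood at 6447, 7159, 3653 and 6501 CPM. In Mettl3-RNP libraries 1 to 4 it stood at 7636, 7429, 4484 and 8353 CPM. The groups overlapped, and libraries numbered 3 were lowest in both. Within pairs Il1rl1 was higher in Mettl3-RNP in 4 of 4, by 0.24, 0.05, 0.30 and 0.36 on the log2 scale. The fitted log2 fold change was 0.24 (SE 0.08), from a mean of 5940 ± 1559 CPM in Pulsed to 6975 ± 1707 CPM in Mettl3-RNP (SD, n = 4), and the gene was not called. DESeq2 called it, with a log2 fold change of 0.25. Counts per gene cannot separate membrane ST2 from the soluble form made from the same gene.

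Il1rap, the accessory chain that ST2 and the IL-1 receptor share, was sparse beside its partner. It stood at 21.4, 16.2, 17.0 and 15.7 CPM in Pulsed and at 21.7, 13.9, 14.8 and 16.7 CPM in Mettl3-RNP. The groups overlapped, with a log2 fold change of -0.08 (SE 0.10), higher in 2 of 4 pairs and lower in the other 2. Per kb of exons, Il1rl1 RNA exceeded Il1rap RNA 477-fold to 982-fold in Pulsed and 674-fold to 1185-fold in Mettl3-RNP, and the ratio was higher in Mettl3-RNP in 4 of 4 pairs. The annotated exons of Il1rap add up to 15282 bp, and on the canonical transcript lengths the ratio ran from 190-fold to 471-fold over the 8 libraries. Gm20319 overlaps 1425 bp of these exons on the opposite strand, and the strand setting of the counting is not given in the sources used here.

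Il18rap, the accessory chain of the IL-18 receptor, fell to 58.0% of its Pulsed level. It stood at 64.5, 54.5, 48.2 and 37.9 CPM in Pulsed libraries 1 to 4 and at 29.4, 34.4, 22.7 and 31.7 CPM in Mettl3-RNP libraries 1 to 4. Every Mettl3-RNP library lay below every Pulsed library, and this was the 1 member of 10 without overlap. Of all genes tested, 3.23% had groups that did not overlap, 1.2% with Mettl3-RNP the lower, and nothing is read from these shares. The means were 51.3 ± 11.2 CPM in Pulsed and 29.5 ± 5.01 CPM in Mettl3-RNP (SD, n = 4). The differences within pairs 1 to 4 were -1.13, -0.66, -1.08 and -0.26, and the fitted log2 fold change was -0.79 (SE 0.14). Il18rap was called with all 8 libraries and without pair 4 (-0.95), and it was not called without pair 1 (-0.70), pair 2 (-0.84) or pair 3 (-0.69). In a bulk sample, fewer cells that carry a transcript and less of it per cell cannot be told apart.

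Its partner Il18r1, which binds IL-18, behaved otherwise. Il18r1 stood at 41.8, 68.0, 78.5 and 80.8 CPM in Pulsed and at 64.8, 59.0, 42.2 and 81.6 CPM in Mettl3-RNP. The groups overlapped and the pairs went both ways, by 0.63, -0.20, -0.90 and 0.01. The fitted log2 fold change was -0.11 (SE 0.21), and it was 0.14 without pair 3. Per kb of exons, the ratio of Il18rap to Il18r1 was 1.13, 0.585, 0.448 and 0.342 in Pulsed and 0.331, 0.426, 0.393 and 0.283 in Mettl3-RNP. This ratio was lower in Mettl3-RNP in 4 of 4 pairs, and the ranges of the groups overlapped.

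Il1r2, the decoy for IL-1, fell to 48.5% of its Pulsed level. Its Pulsed libraries 1 to 4 stood at 158, 159, 418 and 94.0 CPM, and its Mettl3-RNP libraries at 85.7, 66.6, 243 and 39.1 CPM. Both libraries numbered 3 were the highest of their group, and the groups overlapped through Mettl3-RNP 3, which lay above Pulsed 1, 2 and 4. Within pairs Il1r2 was lower in 4 of 4, by -0.89, -1.25, -0.79 and -1.26 on the log2 scale. The fitted log2 fold change was -1.05 (SE 0.10), between means of 207 ± 144 CPM in Pulsed and 108 ± 91.4 CPM in Mettl3-RNP (SD, n = 4). Without pairs 1 to 4 in turn the log2 fold change of Il1r2 was -1.13, -0.98, -1.14 and -0.96. As a description only, it was called each time. In a fit without the replicate block neither Il18rap nor Il1r2 was called. Per kb of exons it amounted to 0.0395 to 0.313 of Il1rl1 in Pulsed and to 0.0128 to 0.148 in Mettl3-RNP, lower in 4 of 4 pairs.

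The signalling IL-1 receptor Il1r1 was barely detected. Its counts were 5, 35, 37 and 8 in Pulsed libraries 1 to 4 and 1, 55, 52 and 6 in Mettl3-RNP libraries 1 to 4. The highest library was at 1.74 CPM, and numbers 2 and 3 were above numbers 1 and 4 in both groups. Its log2 fold change of 0.08 had a SE of 0.57, so neither a rise nor a fall was detectable at this depth. Per kb of exons, the lowest ratio of Il1r2 to Il1r1 RNA in any library was 140.

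**Figure D2:**
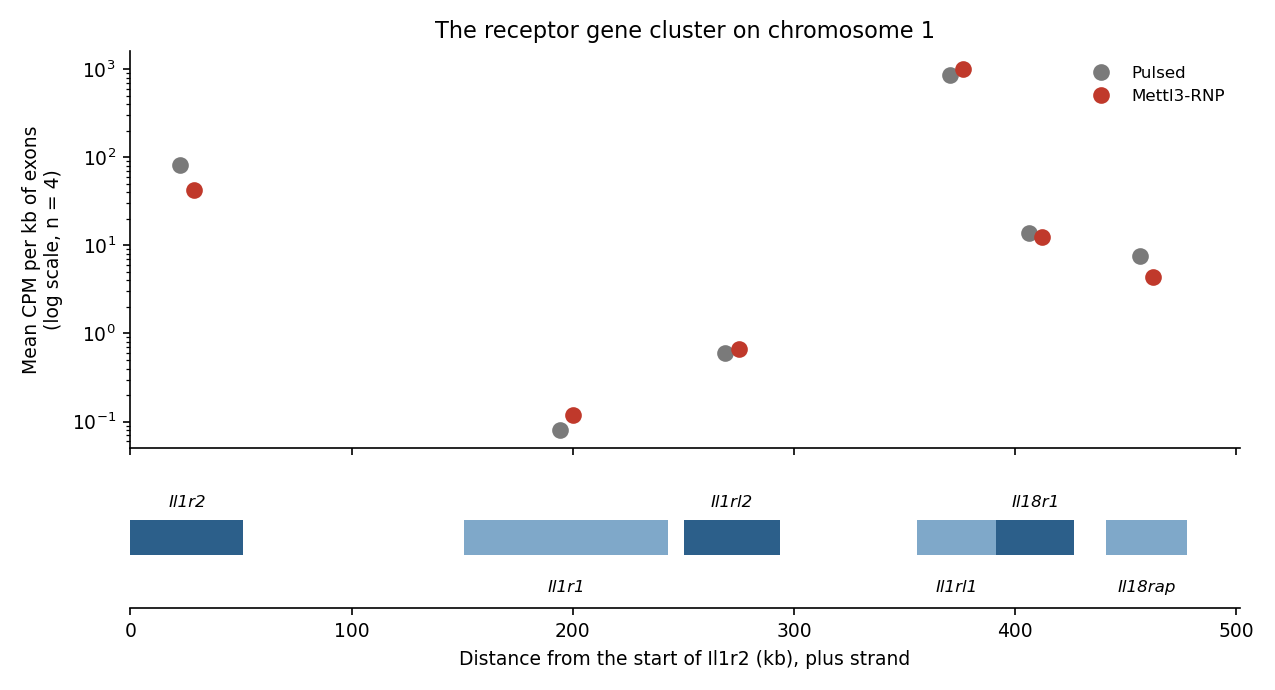
Mean level of the 6 protein-coding genes of the chromosome 1 cluster, in CPM per kb of exons on a log axis (Pulsed grey, Mettl3-RNP red, n = 4), above their positions in kb from the start of Il1r2. Il1rl1 stands above 861 CPM per kb in both groups, its neighbour Il18r1 at 13.7 and 12.6, and Il1r1 and Il1rl2 lie below 1 CPM per kb.

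The cluster therefore held neighbours at very unequal levels. Il1rl1 (862 CPM per kb in Pulsed) and Il18r1 (13.7) are 136 bp apart. At the far ends, Il1r2 fell from 82.2 to 43.0 CPM per kb and Il18rap from 7.60 to 4.37 CPM per kb, while Il1rl1 between them was at 862 and 1012 CPM per kb.

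Of the shared adapter and kinases, 0 of the 4 were called, where 3.74% of all genes tested were, and nothing is read from this count. Myd88, which bridges the receptors to the kinases, stood at 105, 110, 93.7 and 109 CPM in Pulsed and at 97.0, 91.4, 99.7 and 83.1 CPM in Mettl3-RNP. It was lower in 3 of 4 pairs, with overlapping groups and a log2 fold change of -0.17 (SE 0.09). Irak4, the first kinase of the complex, averaged 51.4 ± 14.2 CPM in Pulsed and 47.3 ± 14.4 CPM in Mettl3-RNP (SD, n = 4), a log2 fold change of -0.13 (SE 0.07). Irak1, which Irak4 phosphorylates, averaged 162 ± 28.0 and 155 ± 23.1 CPM, with -0.06 (SE 0.07). Irak2, which sustains the signal, averaged 87.3 ± 18.9 and 87.1 ± 18.7 CPM, with -0.00 (SE 0.07) and a sign that turned with the scaling. Exons of other genes overlap Myd88 (Acaa1a), Irak2 (3 predicted genes) and Irak4 (Pus7l and Twf1) on the opposite strand.

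**Figure D3:**
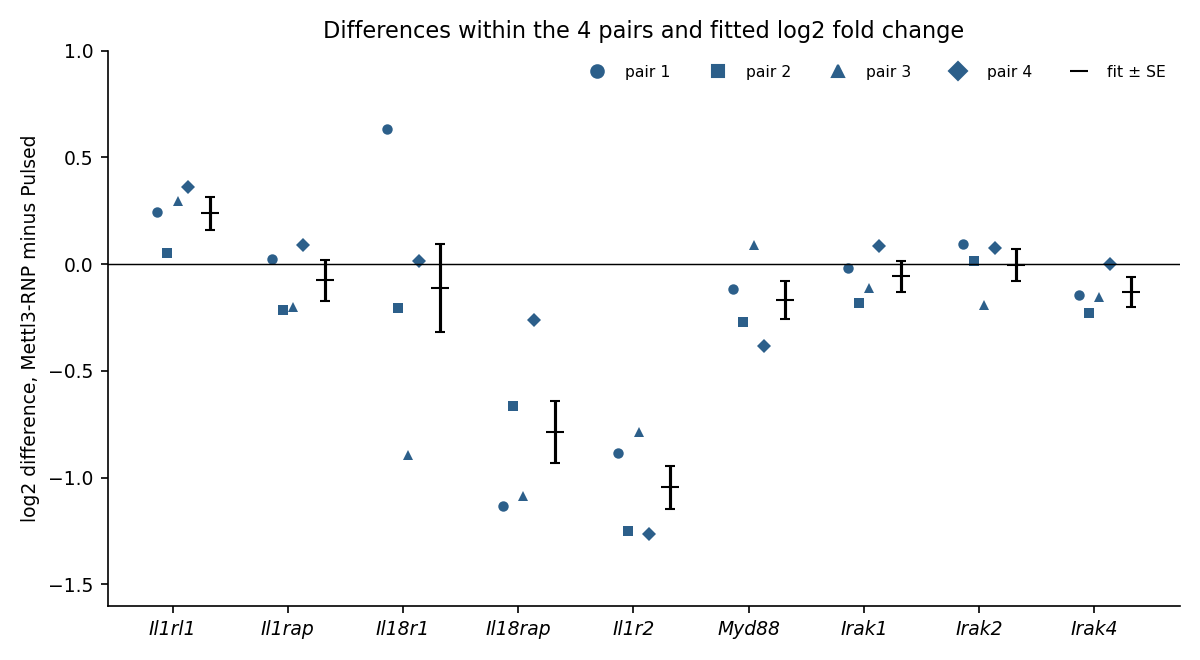
Log2 difference between Mettl3-RNP and Pulsed within each of the 4 pairs (blue, shape by pair), with the fitted log2 fold change and its SE (black), for the 9 genes other than Il1r1. All pairs of Il18rap and Il1r2 lie below 0, all pairs of Il1rl1 lie above 0, and the pairs of Il18r1 spread from -0.90 to 0.63.

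Of the 10 members, 2 were called lower, 0 were called higher and 8 were not called. Over all 14942 genes, 3.74% were called in either direction, 1.39% were called lower, and 0.816% were called lower with a fold of at least 1.5, which both Il18rap and Il1r2 passed. As the members were drawn up with this contrast known, nothing is read from these shares. The median log2 fold change of the 10 members was -0.09, and that of all genes tested was -0.001.

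Markers of other cell types were set beside Il18rap and Il1r2, because lymphoid cells, basophils and myeloid cells can express these receptors. Of 10 T, NK and innate lymphoid markers 4 were tested and 0 called, with Cd3d, Thy1 and Klrb1c at 0 in every library. Their summed level was 14.8 to 16.7 CPM in Mettl3-RNP and 16.0 to 44.5 CPM in Pulsed. Eomes, a lymphoid transcription factor, made up most of that sum, at 13.3 to 14.8 CPM in Mettl3-RNP and 13.0 to 40.9 CPM in Pulsed (log2 fold change -0.92, SE 0.23, adjusted p = 0.0701). Nkg7 was at -1.53 (SE 0.42, adjusted p = 0.0827, lower in 4 of 4 pairs), Il7r at -1.51 (SE 0.47, adjusted p = 0.11, lower in 3 of 4) and Cd3e at 0.26 (SE 0.96, adjusted p = 0.906). DESeq2 and limma-voom each called 2 of the 4, Il7r and Eomes.

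Of 7 basophil markers 6 matched a gene and 5 were tested, summing to 1763 to 2386 CPM in Mettl3-RNP and 2179 to 3275 CPM in Pulsed. Ifitm1, an interferon-inducible membrane protein that made up most of that sum, was the 1 called (log2 fold change -0.60, SE 0.13, adjusted p = 0.0471). Cd200r3, the other abundant one, went the other way, at 0.25 (SE 0.09, adjusted p = 0.151), higher in 4 of 4 pairs and called by DESeq2. The other 3 tested were lower in 4 of 4 pairs without being called, namely the basophil proteases Mcpt8 (-0.42, SE 0.20, adjusted p = 0.267) and Prss34 (-0.68, SE 0.35, adjusted p = 0.299) and the integrin Itga2 (-0.85, SE 0.47, adjusted p = 0.333). These stood at or below 4.03, 1.74 and 0.731 CPM in every library. The 7 macrophage markers summed to 1.14 to 3.68 CPM in Mettl3-RNP and 2.60 to 4.72 CPM in Pulsed, and Adgre1 (F4/80) was the 1 called of 3 tested (-1.13, SE 0.24, adjusted p = 0.0435). The 7 neutrophil markers summed to at most 0.398 CPM, with S100a8, S100a9, Elane and Camp at 0 throughout. Siglecf was the 1 eosinophil marker of 5 that was tested, and it was called (-1.50, SE 0.23, adjusted p = 0.0199), while Epx and Ear1 were at 0 in every library. The called markers were named after their values were seen. The summed levels of the lymphoid, basophil, macrophage, eosinophil and mast cell lists were lower in Mettl3-RNP in 4 of 4 pairs, as Il18rap and Il1r2 were. Sums over abundant genes rest on few of them, as further sums added after seeing the data showed. Without Ifitm1 the basophil sum, then almost all Cd200r3, was higher in Mettl3-RNP in 4 of 4 pairs (510 to 823 CPM, against 500.4 to 628 CPM in Pulsed). Without Cpa3 the mast cell sum was higher in 3 of 4 pairs (21804 to 28050 CPM, against 22993 to 26229 CPM). Their part in the result was not tested.

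Most of the family also differed between the numbered cultures. In the edgeR test of the replicate number given the group, which the choice of members did not use, 7 of the 10 differed at an adjusted p of 0.05 or less, against 53.9% of all genes tested. These were Il1rl1, Il1rap, Il1r1, Il1r2, Irak1, Irak2 and Irak4. Il18r1 (adjusted p = 0.333), Il18rap (0.246) and Myd88 (0.905) did not pass. Whether 7 of 10 exceeds the share over all genes was not tested. The p-values set the differences between numbers against the variation left within pairs after the group effect. No number had a repeat library within a group. Which steps the numbers stand for was not given in the labels.

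The pattern with the number ran in opposite directions for the ST2 gene and the decoy. The mean of both libraries of numbers 1 to 4 was 7041, 7294, 4068 and 7427 CPM for Il1rl1 (adjusted p = 0.00112). For Il1r2 it was 122, 113, 330 and 66.5 CPM (adjusted p = 8.5e-05). Number 3 was lowest for Il1rl1 and highest for Il1r2, in both groups. Irak4 followed Il1rl1, with 61.3, 46.1, 30.5 and 59.3 CPM (adjusted p = 0.000474), and Irak1 was highest at number 3, with 141, 146, 195 and 150.4 CPM (adjusted p = 0.0149).

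The 10 immediate early genes, which are induced within minutes of a stimulus, also split the cultures by number. Their geometric mean was 53.6, 100.2, 658 and 3.84 CPM in Pulsed libraries 1 to 4 and 40.1, 172, 724 and 5.48 CPM in Mettl3-RNP libraries 1 to 4. All 10 passed the replicate test, and 0 of 10 were called between Mettl3-RNP and Pulsed, where 1 had an unadjusted p under 0.05 and DESeq2 and limma-voom called 0. Numbers 3 and 4 were the highest and the lowest for these genes, as they were for Il1r2. The part of an activated state in the replicate pattern was not tested. Without number 3, 3 of the 9 members then tested (Il1r2, Irak2 and Irak4) and 27.2% of all genes differed between numbers.

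**Figure D4:**
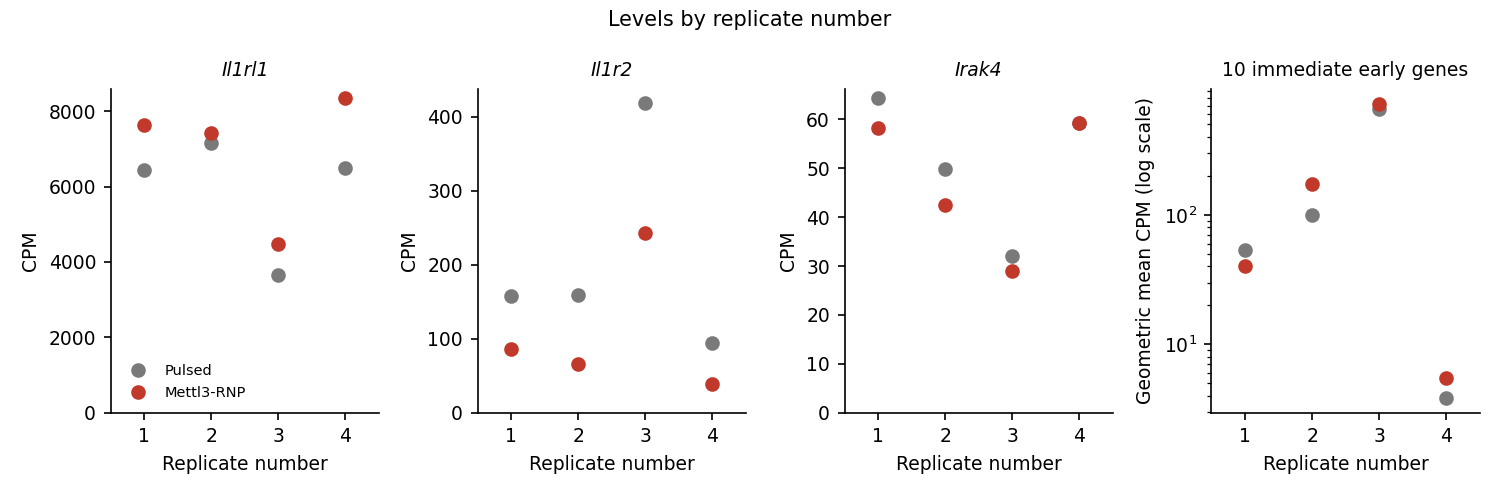
Levels of Il1rl1, Il1r2 and Irak4 (CPM, linear axes from 0) and of the 10 immediate early genes (geometric mean CPM, log axis) by replicate number, with Pulsed in grey and Mettl3-RNP in red. Number 3 is lowest for Il1rl1 (3653 and 4484 CPM) and Irak4 and highest for Il1r2 (418 and 243 CPM) and the immediate early genes. The Irak4 points of number 4 coincide.

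The genes most like Il1rl1 over the 8 libraries, by Pearson correlation of log2 CPM among 11976 genes of at least 1 CPM on average, were Gtf2e1 (r = 0.986), Mlph (0.985), B3galt4 (0.983), Irf3 (0.982) and Pheta2 (0.981). Those most like Il18rap were Cyp4v3 (0.976), Ly6e (0.974), Eepd1 (0.970), Il2ra (0.955) and Cpe (0.935). Il2ra, the alpha chain of the IL-2 receptor, had a log2 fold change of -1.43 and Cpe, carboxypeptidase E, one of -1.82. The points of these correlations share pairs and groups, so a difference between the groups counts toward the likeness. With the group means taken out, r fell to 0.796 to 0.931 for the 5 genes beside Il18rap and was 0.981 to 0.984 for those beside Il1rl1.

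The ligands themselves were nearly silent. Of 10 ligand genes Il1b alone was tested, at 4.47, 1.70, 3.51 and 0.466 CPM in Pulsed and 0.269, 1.45, 1.57 and 0.627 CPM in Mettl3-RNP (log2 fold change -1.16, SE 0.64, adjusted p = 0.336). Its fold change was -0.41 without pair 1, where it differed most (-3.81), and it was called with every gene of at least 1 count kept (-1.14, adjusted p = 0.031). Il33 had 2 counts and Il18 had 2 counts over all 8 libraries, and Il36a, Il36g, Il36rn and Il1f10 had 0. Among 5 other receptors and soluble inhibitors 3 were tested and 0 called. Il18bp, the soluble trap for IL-18, was at 3.81 CPM in Pulsed and 5.57 CPM in Mettl3-RNP on average, higher in 4 of 4 pairs without passing (0.56, SE 0.16, adjusted p = 0.0877). Its groups did not overlap, at 3.18 to 4.67 CPM in Pulsed and 5.18 to 5.89 CPM in Mettl3-RNP. Sigirr, an inhibitory member of the family, had -0.21 (SE 0.09, adjusted p = 0.244), and Il1rl2 had 0.11 (SE 0.15, adjusted p = 0.731).

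Downstream of the receptors, 0 genes were called in the edgeR fit with its default filter. All 4 genes of ligand processing and release were tested, and by mean CPM over the 8 libraries the highest were the inflammasome sensor Nlrp3 (-0.29, SE 0.07, adjusted p = 0.071) and its adapter Pycard (0.24, SE 0.13, adjusted p = 0.325). Nlrp3 was lower in 4 of 4 pairs, and it was called with DESeq2 and with at least 10 counts in every library, with adjusted p-values of 0.015 to 0.999 over the alternatives. All 18 signalling genes below the adapters were tested, with fold changes of -1.12 to 0.37 on the log2 scale. Tab2, which links Traf6 to the kinase Tak1, and Tollip, which restrains Irak1, were the most abundant of these, at 0.19 (SE 0.08, adjusted p = 0.2002) and 0.09 (SE 0.08, adjusted p = 0.595). Of 10 induced targets and feedback genes 8 were tested, with log2 fold changes of -0.46 to 1.36. The ends of that range, named after their values were seen, were Tnfaip3, a feedback inhibitor of NF-kappaB (SE 0.17, adjusted p = 0.167), and Tnf, the cytokine (SE 0.50, adjusted p = 0.154). DESeq2 called Tnfaip3, and edgeR called Tnf without pair 1 and both with every gene of at least 1 count. Within pairs 1 to 4 Tnf differed by -0.42, 2.33, 2.61 and 0.45 on the log2 scale. Il6 had 0.04 (SE 0.14, adjusted p = 0.893), and Nfkbiz, an NF-kappaB cofactor induced by IL-1 and IL-33, had 0.57 (SE 0.14, adjusted p = 0.0687). Nfkbiz was higher in 4 of 4 pairs, and it was called with DESeq2, with every gene of at least 1 count, with at least 10 counts in every library and without pair 1, with adjusted p-values of 0.00026 to 0.999 over the alternatives.

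In all, 34 of the 47 pathway genes outside the 10 members were tested and 0 were called in the edgeR fit with its default filter, against 3.74% of all genes. With every gene of at least 1 count the same test called 7 of the pathway genes and 2.95% of all genes. With at least 10 counts in every library it called 2 of them and 7.67% of all genes. An unadjusted p under 0.05 was reached by 13 of the 34, and by 3357 of the 14942 genes tested. DESeq2 called 7 of them and 9.7% of all its genes, and limma-voom called 0 of them and 4.3% of all genes. As the gene lists were chosen with earlier results of these data known, nothing is read from these shares. The median log2 fold change of the 34 was 0.08, with 23 fitted higher, and that of all genes was -0.001. Between replicate numbers 26 of the 34 differed, where 53.9% of all genes did.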

How the data were processed

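The authors checked reads with FastQC 0.11.9, mapped them with HISAT2 2.2.1 to GRCm39 (Ensembl release 107) and counted them with featureCounts 2.0.1. The deposited values are raw counts per gene, 1 table for each of the 8 libraries. The study describes a batch correction after counting, and which batch is not given in the sources used here. GENCODE mouse release 39 named 56017 of the 56748 IDs and gave positions and exon lengths.

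Counts were fitted with edgeR 4.0.16 (R 4.3.3; filterByExpr, TMM, quasi-likelihood F-test, replicate number as a block, Benjamini-Hochberg over 14942 genes). The numbers paired the libraries: same-numbered deviations correlated at 0.489 to 0.879 and different-numbered ones at 0.183 at most. The replicate test was the joint F-test of 3 number coefficients. DESeq2 1.42.0, limma-voom (limma 3.58.1), no block, other filters and scaling, and leaving out each pair were alternatives. The fit was tested on simulated data. Libraries of a group differed beyond sampling noise (chi-square per degree of freedom at least 52.6).

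Members and gene lists were chosen with earlier results of these data known. Named pathway genes were every tested ligand and other receptor, and called genes of the other lists or else the 2 most abundant. For Il1rl1 and Il18rap the 5 most correlated genes were named.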

Additional observations from a re-analysis of the deposited data

Results flagged for a closer look

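Of 40 groups of 4 libraries checked with Dixon's ratio, over the 20 named genes, 2 had a library apart from the others, and chance alone gives about 2. Both were Nlrp3, the inflammasome sensor, in the libraries numbered 3. It stood at 869 CPM in Mettl3-RNP 3, where the other 3 libraries were at 51.8 to 96.2 CPM. It stood at 948 CPM in Pulsed 3, where the other 3 were at 62.8 to 122 CPM. The same libraries had the highest immediate early gene levels. No library stood apart for any of the 10 members. Tnfaip3 and Tnf, named after their values were seen, were not among the genes checked. Tnf too was highest in the libraries numbered 3. It stood at 11.4, 41.7, 594 and 6.78 CPM in Mettl3-RNP libraries 1 to 4. In Pulsed libraries 1 to 4 it stood at 15.2, 8.25, 97.1 and 4.96 CPM.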

How the results depend on the processing

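Over all genes, 559 were called, of which 308 also passed a fold of 1.5. The count was 1449 with DESeq2, 993 with every gene of at least 1 count, 959 with at least 10 counts in every library, and 26 to 383 without 1 pair in turn (26 without pair 2). Calls that also passed the fold were 505 with DESeq2, 579 with every gene and 26 without pair 2. Without the replicate block it was 0, with 579 genes at an unadjusted p under 0.05, and 0 of the 10 members were called. There Il18rap was at -0.80 and Il1r2 at -0.93 on the log2 scale. In every other setting Il1r2 was called, and 1 or 2 members were called without 1 pair in turn. Without pairs 1 to 4 in turn 2.18%, 0.174%, 2.57% and 2.23% of all genes were called. DESeq2 called 3 members, Il1rl1 being the third, and 9.7% of all genes. As the members were drawn up with this contrast known, nothing is read from these counts. The pathway genes called were 7 with DESeq2, 7 with every gene of at least 1 count, 2 with at least 10 counts in every library and 0 to 2 without 1 pair. In these settings 9.7%, 2.95%, 7.67% and 0.174% to 2.57% of all genes were called. Members that differed between numbers were 3 to 7 without 1 pair (4 without pair 1, 3 without pair 3), where 34.3%, 53.1%, 27.2% and 44.5% of all genes differed without pairs 1 to 4. Il1b was at -0.41 without pair 1.

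Irak2, at -0.00, turned to 0.0049 with DESeq2, 0.0049 with DESeq2 size factors and 0.013 with every gene, and ran from -0.070 to 0.058 without 1 pair in turn (0.058 without pair 3). Without 1 pair Il18r1 ran from -0.40 to 0.14 (0.14 without pair 3), Il1rl2 from -0.018 (without pair 1) to 0.21, and Il6 from -0.10 (without pair 3; -0.046 without pair 2) to 0.14. Of 197 values of named genes under 10 settings, 176 kept their direction and their side of the threshold. The cause of these changes was not tested. With 10 counts in every library, and without pair 2 or 3, Il1r1 was not tested. Depth limits Il1r1 and the ligands, and without molecular identifiers a read need not be a separate molecule.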
